A study of Mus musculus with 14 samples.

Results

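Among 8 arrays from HL-1 cells transfected with siRNA against Airn, 4 carried an Airn signal less than 0.4 log2 units below the mean of the scrambled controls. These 4 of the 14 arrays in the series, called here the near-control siAirn arrays, are the subject of the comparisons, which ask what differed from the controls where no clear loss of Airn RNA was measured. They were chosen by their measured Airn level, so Airn itself is given as values with no test. The arrays so selected are arrays 1 and 2 of the reagent siAirn-001.1 and arrays 1 and 2 of the reagent siAirn-001.2, which the labels call biological replicates 1 and 2 of each. Every p-value given for another gene describes these selected arrays against the controls, and not siAirn transfection in general.

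HL-1 is a mouse line of atrial heart muscle cells that keeps much of the cardiomyocyte programme in culture, grown here in a norepinephrine-containing medium. The cells were transfected with siRNA at a final concentration of 10 nM in 3 groups, namely siAirn-001.1 (4 arrays), siAirn-001.2 (4 arrays) and siScramble (6 arrays), and biotin-labelled RNA was hybridised to Affymetrix arrays. No source used here says what distinguishes the 2 siAirn reagents or how long the cells were kept after transfection. It is likewise not stated whether replicates came from separate cultures, so the p-values reflect only how these arrays vary, which may be technical. All groups come from 1 transformed cell line, and siScramble cells received the same siRNA dose.

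Airn is an imprinted non-coding RNA read from the paternal allele across the start of Igf2r, in the direction opposite to it. Its transcription silences Igf2r in cis, and in the placenta it also silences the more distant transporter genes Slc22a2 and Slc22a3. An siRNA acts on the RNA after it is made, and transfected siRNA can also act on RNAs that match it in part.

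The Airn signal on the near-control arrays was 11.89 and 11.82 log2 with siAirn-001.1 and 11.93 and 11.67 log2 with siAirn-001.2. On the other 4 siAirn arrays it was 10.94, 10.93, 10.71 and 10.85 log2, against 12.16, 11.90, 11.78, 11.98, 12.06 and 12.03 log2 on siScramble arrays 1 to 6. As a percentage of the siScramble mean, the near-control arrays held 80.5% to 96.2%, the other siAirn arrays 41.4% to 48.4%, and single siScramble arrays 86.8% to 113%. The near-control array closest to the threshold was siAirn-001.2 array 2, at 0.31 log2 below the siScramble mean, and the closest array outside it was siAirn-001.1 array 3, at 1.05 log2 below. No array lay between, and 3 of the 4 near-control values fell inside the siScramble range.

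**Figure D1:**
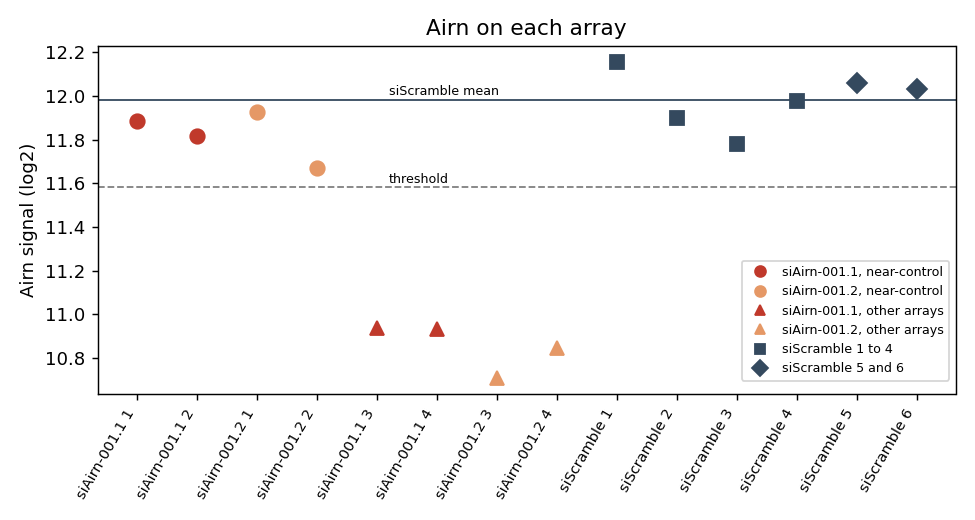
Airn signal (log2) on each of the 14 arrays, with the siScramble mean as a solid line and the threshold 0.4 log2 below it as a dashed line. The 4 near-control siAirn arrays (circles) lie between 11.67 and 11.93 log2, the other siAirn arrays (triangles) between 10.71 and 10.94 log2, and the siScramble arrays (squares and diamonds) between 11.78 and 12.16 log2.

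The control arrays were not uniform, and this touches every result that follows. Arrays 5 and 6 of siScramble stood apart from siScramble arrays 1 to 4 and lay towards the near-control siAirn arrays. On 896 genes, 4.44% of the table, the near-control arrays and siScramble 5 and 6 together did not overlap the remaining 8 arrays. The mitochondrially encoded ND6, a subunit of respiratory complex I, read 6.68, 6.40, 6.09 and 5.59 log2 on the near-control arrays and 9.18 to 9.83 log2 on the other siAirn arrays, against 10.17, 10.16, 10.57, 9.64, 6.30 and 6.15 log2 on siScramble arrays 1 to 6. H19, a non-coding RNA expressed from the maternal allele, read 8.15, 8.19, 7.74 and 7.91 log2 on the near-control arrays and 10.17 to 10.93 log2 on the other siAirn arrays, against 10.52, 10.32, 10.71, 10.18, 7.65 and 7.57 log2 on siScramble. Both genes therefore separated the near-control arrays and siScramble 5 and 6 from all 8 others, with no value in between. They were chosen after their values were seen. No label or file header gives a date, a batch or a culture for any array, and the part of this division in the results was not tested. Each main count, and that of most gene lists, is given against all 6 controls, against siScramble 1 to 4, and against siScramble 5 and 6, where the last uses the spread of all 14 arrays with siScramble 1 to 4 as a group of its own.

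Against all 6 siScramble arrays, 2331 of 20193 genes (11.5%) passed an adjusted p of 0.05 in limma's moderated test with Benjamini-Hochberg adjustment, which is the threshold used throughout. Of these, 1196 (5.92%) were higher and 1135 (5.62%) lower on the near-control arrays. The differences were mostly small, with a median size of 0.35 log2 among the genes that passed and a median standard error of 0.0776 log2 over all genes. A change of 2-fold or more was reached by 15 genes that rose and 20 that fell. For 2295 of the 2331 genes, the siScramble mean lay to one side of all 4 near-control arrays. The 4 arrays and the 6 controls did not overlap at all on 1990 genes (9.85%), of which 1563 also passed the test. Against siScramble 1 to 4 the number of genes that passed was 4370 (21.6%), with 2192 higher (10.9%) and 2178 lower (10.8%). The list counts that follow are to be read beside these shares of all genes in the same direction and against the same controls. Against siScramble 5 and 6 it was 901 (4.46%), with 472 higher (2.34%) and 429 lower (2.12%), and 698 of these were among the 2331 with the same direction. The near-control arrays lay a median of 0.40 log2 from siScramble 1 to 4 and 0.25 log2 from siScramble 5 and 6 over the 2331 genes.

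**Figure D2:**
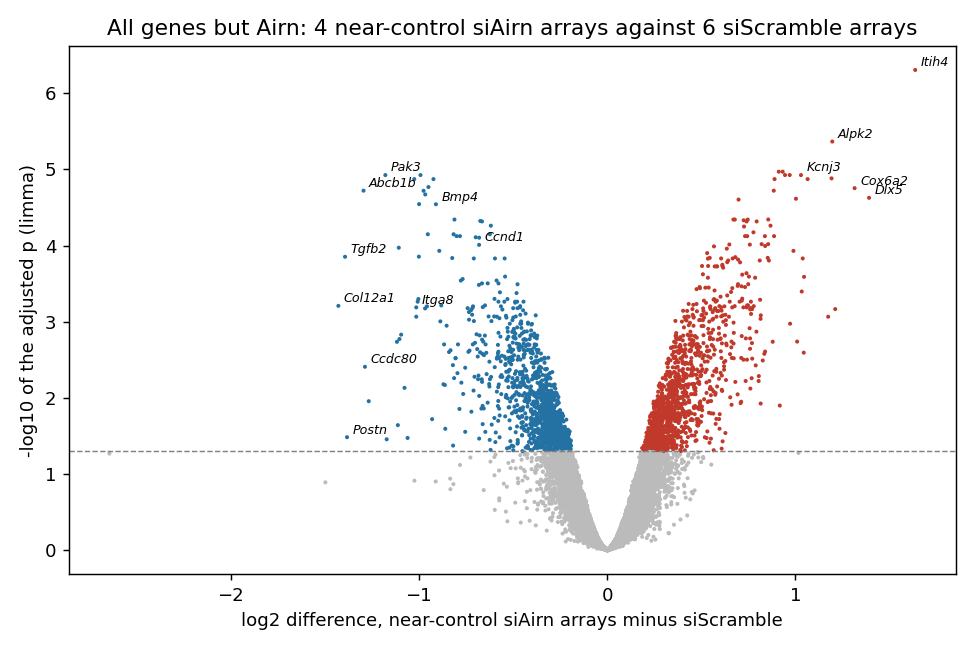
Log2 difference between the 4 near-control siAirn arrays and the 6 siScramble arrays (horizontal) against -log10 of limma's adjusted p (vertical) for every gene but Airn, with genes past 0.05 (dashed line) coloured red where higher and blue where lower. Itih4 at 1.64 log2 and Col12a1 at -1.43 log2 were the largest rise and fall among the named genes that passed.

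The genes that rose most included muscle isoforms of cytochrome c oxidase subunits, an atrial potassium channel subunit and several membrane transporters. Itih4, a secreted protein of the inter-alpha-trypsin inhibitor family, read 9.66, 9.59, 9.40 and 9.21 log2 on the near-control arrays, against 8.06, 7.91, 7.67, 7.73, 7.79 and 7.82 log2 on siScramble. Its difference of 1.64 ± 0.08 log2 (SE, 3.11-fold, adjusted p = 4.95e-07) was the largest rise among genes named here and was as large against siScramble 5 and 6, at 1.66 log2. The kinase gene Alpk2, active in heart, read 9.17, 9.01, 8.70 and 8.47 log2 on the near-control arrays, against 7.54 to 7.79 log2 on siScramble. It rose by 1.196 ± 0.07 log2 (adjusted p = 4.31e-06) and by 1.09 log2 against siScramble 5 and 6.

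Dlx5, a homeobox transcription factor of bone and limb development, rose by 1.39 ± 0.12 log2 (adjusted p = 2.36e-05). Its near-control values of 9.49 and 9.16 log2 with siAirn-001.1 and 8.18 and 8.62 log2 with siAirn-001.2 stood apart by reagent, and both pairs were above the siScramble range of 7.16 to 7.71 log2. Kcnj3, a subunit of the acetylcholine-gated potassium channel that slows atrial cells, read 8.72, 8.60, 8.51 and 8.42 log2, against 7.31 to 7.70 log2 on siScramble, a rise of 1.03 ± 0.08 log2 (adjusted p = 1.19e-05) and of 0.90 log2 against siScramble 5 and 6. Cideb, which acts on lipid droplets and lipoprotein loading in liver, rose by 1.19 log2. Nupr1, a stress-induced chromatin protein, rose by 1.17 log2 against all controls and by 0.68 log2 against siScramble 5 and 6. The glutamine transporter Slc38a3 (1.06 log2), the iron exporter Slc40a1 (1.05 log2), the carbonyl reductase Cbr2 (1.04 log2) and Tcp11l2 (1.03 log2) complete the 12 largest rises without overlap. All 12 passed against siScramble 1 to 4, and against siScramble 5 and 6 all but Cox8b did (0.73 log2, adjusted p = 0.0639).

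The genes that fell most included secreted matrix proteins, a growth factor and signalling kinases. Pak3, a kinase that acts downstream of the small GTPases Rac and Cdc42, read 7.09, 7.03, 8.19 and 7.80 log2 on the near-control arrays, against 8.52 to 8.84 log2 on siScramble. It fell by 1.18 log2 (SE 0.09, adjusted p = 1.19e-05) and by 1.30 log2 against siScramble 5 and 6. Abcb1b, a P-glycoprotein drug efflux pump, read 7.11, 6.89, 7.71 and 7.13 log2, against 8.32 to 8.71 log2 on siScramble, and fell by 1.29 log2 (SE 0.11, adjusted p = 1.90e-05). In both genes siScramble 5 and 6 lay with the other controls.

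A second kind of fall was shared by siScramble 5 and 6. Postn, the matricellular protein periostin, read 6.74, 6.65, 6.63 and 6.76 log2 on the near-control arrays, against 8.78, 8.82, 8.45, 8.68, 6.95 and 6.78 log2 on siScramble 1 to 6. Its difference was -1.38 ± 0.38 log2 (adjusted p = 0.0328) against all controls, -1.99 log2 against siScramble 1 to 4, and -0.17 log2 against siScramble 5 and 6 (adjusted p = 0.652). Leaving out 1 array ended the call in 8 of 10 fits, with an adjusted p of up to 0.0985. Nxf7, of the nuclear RNA export factor family, differed by -1.17 log2 against all controls and by -0.16 log2 against siScramble 5 and 6 (adjusted p = 0.784). The ATP-gated channel P2rx1 differed by -1.27 log2 and by -0.47 log2 (adjusted p = 0.227) in the same order. For these 3 genes the call rests on siScramble 1 to 4. Of the 12 largest falls without overlap, the other 10 passed against siScramble 5 and 6 too, with smaller differences for Col12a1 (-0.89 in place of -1.43 log2), Tgfb2 (-0.97 in place of -1.39 log2), Ccdc80 (-0.55 in place of -1.29 log2), Thbs1 (-0.57 in place of -1.12 log2), S100a11 (-0.62 in place of -1.09 log2) and Odz3 (-0.39 in place of -1.08 log2). Phlda2, an imprinted gene that restrains placental growth, differed by -0.86 in place of -1.11 log2.

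**Figure D3:**
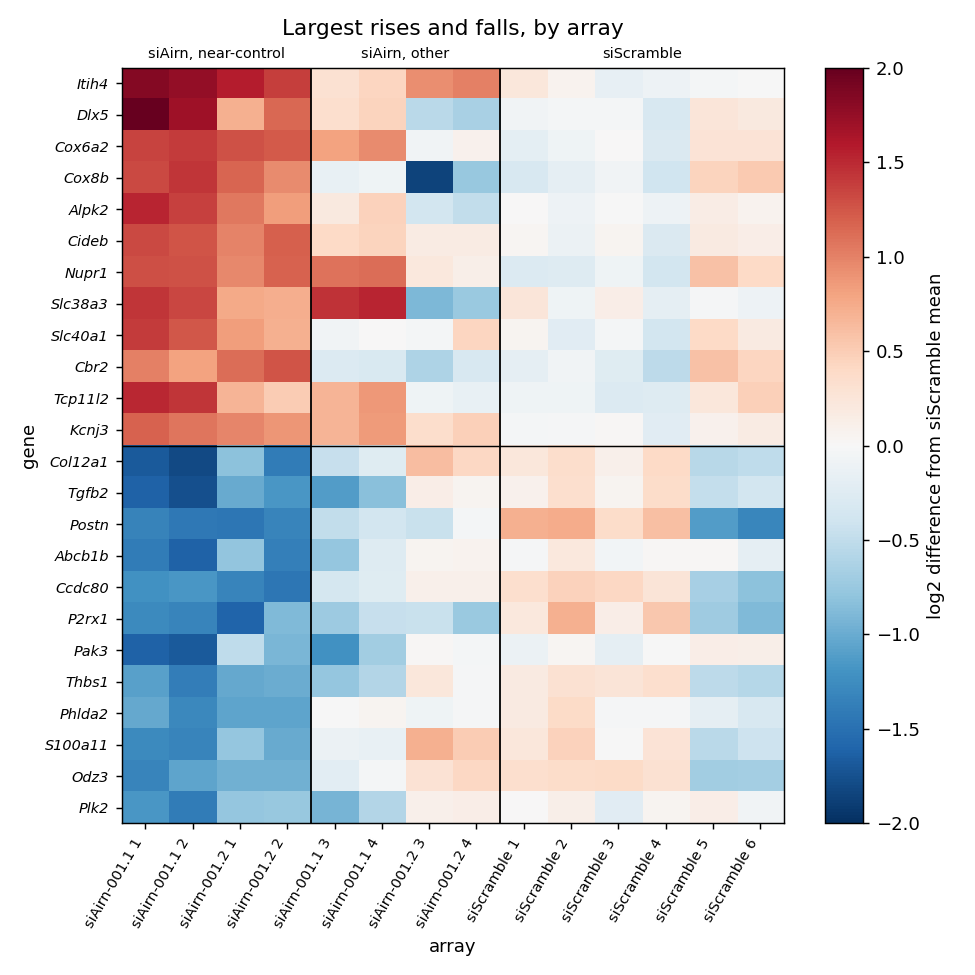
Log2 difference from the siScramble mean on each array (columns) for the 12 largest rises and 12 largest falls without overlap between the near-control siAirn arrays and siScramble (rows). SiScramble arrays 5 and 6 share the blue of the near-control arrays for Postn, Ccdc80, P2rx1 and Odz3, and stay near 0 for Pak3, Abcb1b and Plk2.

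Genes of ribosome biogenesis were lower on the near-control arrays. This list holds factors of the nucleolus that transcribe, process and fold ribosomal RNA into subunits, and growth-promoting signals such as Myc are known to raise them together. Of 57 measured members, 44 fell and 0 rose, against 5.62% of all genes that fell, and the median difference was -0.45 log2, against 0.00 log2 over all genes. Against siScramble 1 to 4, 51 fell and 1 rose, beside 10.8% of all genes that fell. Against siScramble 5 and 6, 19 fell and 0 rose, beside 2.12% of all genes, with a median of -0.27 log2. The mean over the list, relative to the siScramble mean, was -0.45, -0.54, -0.36 and -0.40 log2 on the near-control arrays and -0.19, -0.05, -0.06 and -0.01 log2 on the other siAirn arrays, against 0.06, 0.13, 0.05, 0.09, -0.12 and -0.22 log2 on siScramble arrays 1 to 6. Each near-control array was thus below every control, and siScramble 5 and 6 were the lowest controls.

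Utp20, a scaffold of the small subunit processome, read 8.54, 8.48, 8.98 and 8.79 log2 on the near-control arrays, against 9.65, 9.61, 9.35, 9.65, 9.43 and 9.39 log2 on siScramble. It fell by 0.82 log2 (SE 0.08, adjusted p = 7.11e-05), and by 0.71 log2 against siScramble 5 and 6. Mybbp1a, a nucleolar protein that binds Myb and takes part in rRNA processing, read 9.56, 9.44, 9.85 and 9.69 log2, against 10.55, 10.68, 10.66 and 10.70 log2 on siScramble 1 to 4 and 10.02 and 10.03 log2 on siScramble 5 and 6. Its difference of -0.80 ± 0.14 log2 (adjusted p = 0.00299) was -0.39 log2 against the last 2 controls, so the size depended on the controls used while the groups did not overlap.

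The list's falls covered several steps of subunit assembly. The box C/D proteins that guide rRNA methylation, Fbl and Nop58, fell by 0.65 and 0.66 log2, and both passed against siScramble 5 and 6 (-0.42 and -0.41 log2). The rRNA methyltransferase Nop2 fell by 0.53 log2, and the helicase Ddx21 by 0.58 log2. Subunits of RNA polymerase I, which makes the large rRNA precursor, fell by 0.39 log2 (Polr1a), 0.36 log2 (Polr1b) and 0.53 log2 (Polr1e). The abundant nucleolar proteins Ncl and Npm1 fell by 0.48 and 0.38 log2, but not against siScramble 5 and 6 (adjusted p = 0.192 and 0.157). The proteins of the finished cytosolic ribosome did not share this direction, with 2 of 37 higher, 3 lower and a median of -0.04 log2 (4 higher and 5 lower against siScramble 1 to 4, 0 and 1 against siScramble 5 and 6). Rps27l fell by 0.43 log2 and Rplp1 rose by 0.41 log2. Members beyond Utp20 and Mybbp1a were chosen after their values were seen.

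Promoters of the list are shown because its members fell together and because Myc binds the E-box CACGTG. In RefSeq windows on GRCm38.p6, from 250 bases before to 50 after each start, 8 of the 50 measured members with a sequence (16.0%) held CACGTG, as did 5 of the 38 that fell (13.2%). The members that fell thus held it no more often than the measured list as a whole. The motif reads the same on both strands, and it was found in 8.09% of all genes and 7.15% of the 32851 windows of the table. Below are the 3 largest falls with the motif among the promoters considered for printing, which left out part of the genome. They are written 5′ to 3′ in the direction of the gene, with CACGTG in capitals. They lie at chr10:88826765-88827064 on the minus strand, chr11:72441077-72441376 on the plus strand and chr6:125131633-125131932 on the plus strand.
Utp20: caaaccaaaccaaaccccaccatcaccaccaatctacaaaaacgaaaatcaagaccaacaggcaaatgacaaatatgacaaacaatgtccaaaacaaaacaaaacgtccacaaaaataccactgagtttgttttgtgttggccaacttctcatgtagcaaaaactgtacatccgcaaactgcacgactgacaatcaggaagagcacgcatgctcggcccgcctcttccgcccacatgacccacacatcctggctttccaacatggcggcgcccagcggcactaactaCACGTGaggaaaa
Mybbp1a: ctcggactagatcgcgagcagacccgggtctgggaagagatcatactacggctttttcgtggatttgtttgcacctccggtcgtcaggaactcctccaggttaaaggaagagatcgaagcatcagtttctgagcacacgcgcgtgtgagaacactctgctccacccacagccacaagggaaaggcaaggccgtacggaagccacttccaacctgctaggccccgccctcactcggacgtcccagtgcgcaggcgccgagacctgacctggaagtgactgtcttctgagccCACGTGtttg
Nop2: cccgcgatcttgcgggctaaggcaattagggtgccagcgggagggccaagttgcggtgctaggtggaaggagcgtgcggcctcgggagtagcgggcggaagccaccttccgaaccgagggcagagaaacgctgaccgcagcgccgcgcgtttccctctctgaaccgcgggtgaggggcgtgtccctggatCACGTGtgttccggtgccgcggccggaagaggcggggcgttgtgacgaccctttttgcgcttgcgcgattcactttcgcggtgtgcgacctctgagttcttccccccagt
The motif begins at base 288 of 300 in the Utp20 window, at base 291 in that of Mybbp1a and at base 191 in that of Nop2. Its presence is a description of these letters and not a measured binding site.

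Within the list of Myc and G1 regulators, 1 of 27 members rose and 3 fell, with a median of 0.00 log2, so the list as a whole showed no direction. It had 3 rises and 6 falls against siScramble 1 to 4, and 1 and 2 against siScramble 5 and 6. Myc read 8.21, 7.997, 8.70 and 8.51 log2 on the near-control arrays, against 9.30, 9.54, 8.96, 9.57, 9.02 and 8.78 log2 on siScramble. It fell by 0.84 log2 (SE 0.14, adjusted p = 0.00250), and its difference against siScramble 5 and 6 was -0.54 log2 (adjusted p = 0.0562). Ccnd1, the cyclin that drives G1 through its kinase partner, read 7.84, 7.87, 7.94 and 8.01 log2, against 8.38 to 8.70 log2 on siScramble. It fell by 0.68 log2 (SE 0.07, adjusted p = 9.80e-05) and by 0.56 log2 against siScramble 5 and 6, with no overlap. The kinase Cdk4 fell by 0.26 log2 and the Myc partner Max rose by 0.28 log2, and the other 23 members did not pass. Cdk4 and Max were chosen after their values were seen. Among 36 replication genes 1 rose (Prim2, 0.27 log2) and 1 fell (Orc6, -0.36 log2), with 3 rises and 5 falls against siScramble 1 to 4. Among 31 mitosis genes 1 rose (Pttg1, 0.27 log2) and 1 fell (Ect2, -0.34 log2), with 1 rise and 12 falls against siScramble 1 to 4. Against siScramble 5 and 6, 0 genes of either list passed limma's adjusted threshold, so the mitosis count turned on the controls used.

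Targets of p53, the transcription factor that answers DNA damage and nucleolar stress, were lower whichever controls were used. Of 30 measured targets, 12 fell and 0 rose against all controls, beside 5.62% of all genes that fell, with a median of -0.33 log2. With siScramble 1 to 4 as controls, 14 fell and 2 rose, beside 10.8% of all genes that fell, and against siScramble 5 and 6, 20 fell and 0 rose, beside 2.12%, with a median of -0.52 log2. The list mean was -0.43 and -0.44 log2 with siAirn-001.1 and -0.14 and -0.19 log2 with siAirn-001.2 on the near-control arrays and -0.27, -0.16, -0.02 and -0.02 log2 on the other siAirn arrays, against -0.06, -0.03, -0.16, -0.04, 0.16 and 0.12 log2 on siScramble. Here siScramble 5 and 6 were the highest controls, on the far side from the near-control arrays, and siScramble 3 was between the siAirn-001.2 arrays.

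Plk2, a p53-induced polo-like kinase, read 8.12, 7.89, 8.51 and 8.52 log2 on the near-control arrays, against 9.06 to 9.42 log2 on siScramble. It fell by 1.02 log2 (SE 0.08, adjusted p = 1.34e-05) and by 1.05 log2 against siScramble 5 and 6. The translesion polymerase gene Polk fell by 0.74 log2 (SE 0.10, adjusted p = 6.64e-04) and the nucleolar exonuclease gene Aen by 0.62 log2 (SE 0.06, adjusted p = 5.49e-05). Mdm2, the ubiquitin ligase that p53 induces and that degrades it, read 9.78, 9.76, 10.63 and 10.01 log2, against 10.52 to 10.94 log2 on siScramble. It fell by 0.70 log2 (SE 0.11, adjusted p = 0.00189), although siAirn-001.2 array 1 lay within the siScramble range. The apoptosis gene Bax fell by 0.44 log2 (SE 0.09, adjusted p = 0.00865). The cell cycle inhibitor Cdkn1a differed by -0.25 ± 0.10 log2 against all controls (adjusted p = 0.131) and fell by 0.48 log2 against siScramble 5 and 6 (adjusted p = 0.00662). Aen, Mdm2, Bax and Cdkn1a were chosen after their values were seen.

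Genes of oxidative phosphorylation, which build the respiratory chain and the ATP synthase, were higher. Of 71 measured members, 26 rose and 0 fell, beside 5.92% of all genes that rose, and the median was 0.20 log2. Relative to siScramble 1 to 4, 37 rose and 0 fell, beside 10.9% of all genes that rose, but against siScramble 5 and 6, 2 rose and 0 fell, beside 2.34% of all genes, with a median of 0.14 log2. The list mean was 0.28, 0.22, 0.20 and 0.21 log2 on the near-control arrays and 0.06, 0.13, 0.04 and 0.19 log2 on the other siAirn arrays, against -0.05, 0.00, -0.02, -0.05, 0.07 and 0.05 log2 on siScramble. The near-control arrays were above all 6 controls, with siScramble 5 and 6 the highest of these. Leaving out the first siAirn-001.1 array lowered the count to 9, and leaving out its second array or the first siAirn-001.2 array lowered it to 13. It was 16 without siAirn-001.2 array 2 or siScramble 1, and 15 without siScramble 4.

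The large rises in this list were those of muscle isoforms of cytochrome c oxidase, the last complex of the chain. Cox6a2 read 11.12, 11.15, 11.04 and 10.98 log2 on the near-control arrays, against 9.57, 9.68, 9.77, 9.47, 10.03 and 10.03 log2 on siScramble. It rose by 1.31 ± 0.11 log2 (2.49-fold, adjusted p = 1.76e-05) and by 1.04 log2 against siScramble 5 and 6. Cox7a1 read 12.14, 12.04, 12.12 and 11.82 log2, against 11.09 to 11.22 log2 on siScramble, and rose by 0.89 ± 0.07 log2 (adjusted p = 1.34e-05), with 0.87 log2 against siScramble 5 and 6. Cox8b read 10.78, 10.89, 10.62 and 10.40 log2, against 9.06 to 9.39 log2 on siScramble 1 to 4 and 9.91 and 9.98 log2 on siScramble 5 and 6. Its rise was 1.21 ± 0.17 log2 (adjusted p = 6.83e-04), and these 3 genes did not overlap with any control. The widely expressed isoform Cox6a1 rose by 0.38 log2, Uqcrfs1, the iron-sulfur protein of complex III, by 0.47 log2 and the complex I subunit Ndufa7 by 0.40 log2. Mitochondrial ribosomal proteins moved in both directions, with 5 of 71 higher, 2 lower and a median of -0.01 log2 (7 and 9 against siScramble 1 to 4, 1 and 0 against siScramble 5 and 6). Mrps36, placed in this list by its name, rose by 0.76 log2 and Mrpl21 by 0.70 log2. Of 19 citric acid cycle genes, the succinate-CoA ligase subunit gene Suclg1 rose by 0.33 log2 and the pyruvate carboxylase gene Pcx fell by 0.54 log2 (2 and 2 against siScramble 1 to 4, 0 and 1 against siScramble 5 and 6). Cox7a1, Cox6a1, Uqcrfs1 and Ndufa7 were chosen after their values were seen.

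Fuel use genes changed in the same direction as the respiratory chain. For fatty acid oxidation 10 of 31 members rose and 1 fell (beside 5.92% of all genes higher and 5.62% lower), with a median of 0.20 log2. Against siScramble 1 to 4, 14 rose and 2 fell, and against siScramble 5 and 6, 8 rose and 1 fell, the last beside 2.34% and 2.12% of all genes. The pyruvate dehydrogenase kinases, which hold back glucose oxidation, were the largest rises. Pdk2 read 11.38, 11.28, 11.03 and 11.04 log2 on the near-control arrays, against 10.19 to 10.75 log2 on siScramble (0.76 ± 0.11 log2, adjusted p = 0.00122). Pdk4 read 11.61, 11.65, 11.36 and 11.40 log2, against 10.81 to 11.07 log2 on siScramble (0.58 ± 0.07 log2, adjusted p = 1.88e-04). Both passed against siScramble 5 and 6 (0.44 and 0.46 log2). The lipid-sensing receptor gene Ppara rose by 0.41 log2, and Cpt1c, a carnitine palmitoyltransferase of neurons, fell by 0.52 log2. The number that rose was 6 without siScramble 4, either siAirn-001.1 array, or array 2 of siAirn-001.2.

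In the list of glycolysis and hypoxia genes 11 of 30 rose and 1 fell (beside 5.92% of all genes higher and 5.62% lower), with a median of 0.11 log2. Relative to siScramble 1 to 4, 14 rose and 1 fell, and against siScramble 5 and 6, 3 rose and 0 fell. Egln3, the oxygen-sensing prolyl hydroxylase that hypoxia induces, read 10.56, 10.58, 9.80 and 10.29 log2 on the near-control arrays and 9.62, 9.48, 7.99 and 8.16 log2 on the other siAirn arrays, against 8.82 to 9.71 log2 on siScramble. It rose by 0.97 ± 0.14 log2 on the near-control arrays (adjusted p = 0.00106), while the other siAirn-001.2 arrays lay below the siScramble range. Bnip3, a hypoxia-induced mitophagy receptor, read 11.13, 11.33, 10.77 and 11.14 log2, against 9.91 to 10.61 log2 on siScramble, a rise of 0.77 log2 against all controls (adjusted p = 0.00191) and a difference of 0.61 log2 against siScramble 5 and 6 (adjusted p = 0.120). Vegfa (0.40 log2), Pdk1 (0.55 log2), Aldoc (0.53 log2), Eno3 (0.55 log2) and the glucose transporter Slc2a4 (0.43 log2) rose as well. The list mean on the other siAirn-001.2 arrays was -0.41 and -0.33 log2, against 0.11 and 0.20 log2 on the near-control arrays of that reagent. The number that rose was 6 without siAirn-001.1 array 2 and 5 without siAirn-001.2 array 2. Ppara, Cpt1c, Vegfa, Pdk1, Aldoc, Eno3 and Slc2a4 were chosen after their values were seen.

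**Figure D4:**
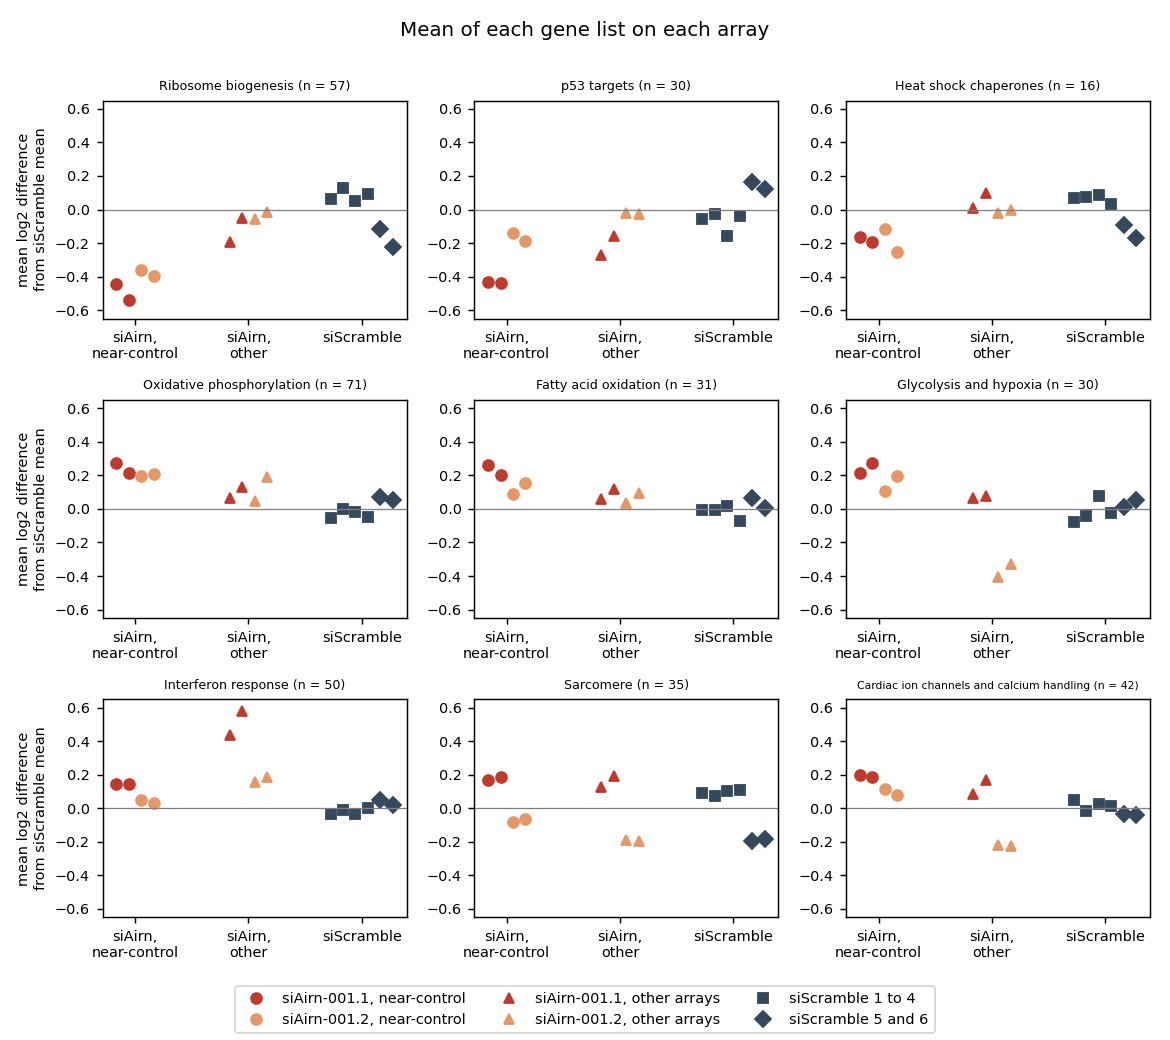
Mean over each gene list of the log2 difference from the siScramble mean (vertical), with 1 point per array: near-control siAirn arrays, other siAirn arrays and siScramble arrays from left to right, and siScramble 5 and 6 as diamonds. The near-control arrays lie below all controls for ribosome biogenesis (-0.54 to -0.36 log2) and above them for oxidative phosphorylation (0.20 to 0.28 log2), whereas for sarcomere genes the 2 reagents and the 2 sets of controls lie on opposite sides of 0.

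Abundant heart muscle markers were high in both groups, while some atrial markers rose. Cardiac troponin T, Tnnt2, averaged 13.35 ± 0.06 log2 on the near-control arrays and 13.38 ± 0.10 log2 on siScramble (SD, n = 4 and n = 6), and cardiac actin, Actc1, 13.71 ± 0.06 and 13.69 ± 0.03 log2. The atrial light chain Myl7 averaged 13.16 ± 0.18 log2 on the near-control arrays, against 13.09 ± 0.44 log2 on siScramble, where arrays 5 and 6 read 12.49 and 12.55 log2. Nppa, the atrial natriuretic peptide, averaged 9.02 ± 0.08 log2, against 9.39 ± 0.34 log2 on siScramble, and did not pass limma's test (adjusted p = 0.128). It read 9.54 to 9.70 log2 on siScramble 1 to 4, and 9.06 and 8.87 log2 on siScramble 5 and 6. Of 15 markers listed for atrial cells, 4 rose and 0 fell, beside 5.92% of all genes that rose. The rises were Kcnj3 (1.03 log2), Tbx5 (0.51 log2), Pam (0.36 log2) and Ryr2 (0.29 log2), of which Pam and Ryr2 were chosen after their values were seen. The list is not purely atrial, since it also holds general heart muscle genes such as Tnnt2, Actc1 and Ryr2. The number that rose was 4, with 1 fall, against siScramble 1 to 4, and 5, with 0 falls, against siScramble 5 and 6. The summed signal of all 15 markers on the linear scale was 65129 to 73084 on the near-control arrays, against 58265 to 69126 on siScramble, so the 2 ranges overlapped, and such sums are dominated by the brightest probes. Summed signals overlapped too for fibroblast markers (4169 to 4874, against 4026 to 4670), smooth muscle markers (20517 to 22533, against 21472 to 23179) and leukocyte markers (674 to 781, against 685 to 784). Those of endothelial markers were 1070 to 1272, against 1037 to 1150. Of 9 endothelial markers 2 rose and 1 fell, with the receptor genes Kdr at 0.46 log2 and Tek at -0.57 log2, and of 9 smooth muscle markers 0 rose and 1 fell (Pdgfrb, -0.44 log2). The sum of 6 ventricular markers was 2057 to 2411 on the near-control arrays, against 1434 to 1569 on siScramble, with no overlap. Kcne1, at 10.47 to 10.81 log2 on the near-control arrays, made up most of that sum there. The median difference of the list was 0.01 log2, and of its members Kcne1 rose while Myl2 and Hey2 (-0.31 log2) fell. Tnnt2, Actc1, Myl7, Nppa and Hey2 were also chosen after their values were seen. Values of this kind have no true zero, and the part of any other cell type in the results was not tested.

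Ion channel and calcium handling genes included some of the clearest rises. Of 42 members, 13 rose and 3 fell (beside 5.92% of all genes higher and 5.62% lower), with a median of 0.08 log2. With siScramble 1 to 4 as controls, 12 rose and 7 fell, and against siScramble 5 and 6, 9 rose and 1 fell. Kcne1, the accessory subunit of the slow delayed rectifier channel, read 10.81, 10.66, 10.54 and 10.47 log2 on the near-control arrays and 9.97, 10.04, 9.52 and 9.73 log2 on the other siAirn arrays, against 9.51 to 9.78 log2 on siScramble. It rose by 0.97 ± 0.07 log2 (adjusted p = 1.19e-05) and by 0.88 log2 against siScramble 5 and 6, with no overlap. Its channel partner Kcnq1 rose by 0.53 log2, the rapid delayed rectifier gene Kcnh2 by 0.49 log2, the calcium channel subunit gene Cacna2d1 by 0.58 log2 and the calcium-binding S100a1 by 0.65 log2. Ncs1, a calcium sensor, read 7.44, 7.10, 7.53 and 7.43 log2, against 8.13 to 8.55 log2 on siScramble, and fell by 0.95 log2 (SE 0.09, adjusted p = 7.11e-05). Kcnq1, Kcnh2, Cacna2d1 and S100a1 were chosen after their values were seen.

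Of 28 cardiac transcription factors, 7 rose and 1 fell (beside 5.92% of all genes higher and 5.62% lower), with a median of 0.11 log2. Against siScramble 1 to 4, 8 rose and 3 fell, and against siScramble 5 and 6, 6 rose and 0 fell. Tbx5, which controls atrial identity and conduction, read 11.83, 11.78, 11.57 and 11.55 log2 on the near-control arrays, against 11.01 to 11.32 log2 on siScramble, a rise of 0.51 ± 0.07 log2 (adjusted p = 5.29e-04). Prox1 rose by 0.54 ± 0.08 log2 (adjusted p = 9.97e-04). Both passed against siScramble 5 and 6. The number that rose was 4 without either siAirn-001.1 array or array 1 of siAirn-001.2.

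Sarcomere genes showed no common direction that held across the controls. Of 35, 7 rose and 4 fell (beside 5.92% of all genes higher and 5.62% lower), with a median of 0.01 log2. With siScramble 1 to 4 as controls, 7 rose and 10 fell with a median of -0.09 log2, and against siScramble 5 and 6, 13 rose and 1 fell with a median of 0.23 log2. The list mean was 0.17 and 0.19 log2 with siAirn-001.1 and -0.08 and -0.07 log2 with siAirn-001.2, against 0.09, 0.07, 0.10, 0.11, -0.20 and -0.18 log2 on siScramble. Lmod2, a leiomodin of thin filament assembly, rose by 0.83 ± 0.15 log2 (adjusted p = 0.00323). The ventricular light chain Myl2 read 6.74, 6.87, 7.20 and 7.01 log2, against 7.54 to 7.78 log2 on siScramble, and fell by 0.70 log2 (SE 0.07, adjusted p = 7.78e-05) with 0.64 log2 below siScramble 5 and 6. These genes kept their direction against both sets of controls, unlike the list.

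Secreted matrix genes gave large falls but no uniform direction. Of 48, 10 fell and 4 rose (beside 5.92% of all genes higher and 5.62% lower), with a median of -0.07 log2. Relative to siScramble 1 to 4, 17 fell and 4 rose, and against siScramble 5 and 6, 7 fell and 3 rose. Col12a1, a collagen that coats fibrils, read 7.87, 7.75, 8.73 and 8.16 log2 on the near-control arrays, against 9.78, 9.91, 9.65, 9.95, 8.998 and 9.05 log2 on siScramble. It fell by 1.43 log2 (SE 0.19, adjusted p = 6.19e-04). The small leucine-rich proteoglycans Ogn, Fmod and Prelp fell by 1.01, 1.01 and 0.89 log2, and the cartilage matrix protein Matn3 by 0.96 log2. Fibulin 1, Fbln1, rose by 0.74 log2, and Mgp, an inhibitor of calcification, by 0.76 log2. Without siScramble 5 the number that fell was 17. Of 10 fibroblast markers 0 passed limma's adjusted threshold, and one of them, the proteoglycan gene Dcn, differed by -0.91 log2 (adjusted p = 0.125). For these markers, 3 fell and 1 rose against siScramble 1 to 4, beside 10.8% of all genes lower and 10.9% higher. Against siScramble 5 and 6, 0 fell and 0 rose. Integrin and focal adhesion genes gave 7 falls and 3 rises of 28 (beside 5.92% of all genes higher and 5.62% lower), 11 falls and 3 rises against siScramble 1 to 4, and 1 of each against siScramble 5 and 6. Itga8, the integrin alpha 8 chain, read 7.23, 7.15, 7.63 and 7.37 log2, against 7.90 to 8.69 log2 on siScramble, and fell by 1.01 log2 (SE 0.14, adjusted p = 6.48e-04). The muscle integrin chain gene Itga7 fell by 0.36 log2. The 7 falls became 1 without array 2 of siAirn-001.1, 2 without array 2 of siAirn-001.2, 3 without array 1 of either reagent, and 4 without siScramble 1, 2 or 4. Ogn, Prelp, Matn3, Fbln1, Mgp and Dcn were chosen after their values were seen.

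Ligands of the TGF-beta family moved in opposite directions. Tgfb2 read 8.38, 8.24, 8.99 and 8.83 log2 on the near-control arrays, against 10.08, 10.34, 10.06, 10.36, 9.52 and 9.63 log2 on siScramble, and fell by 1.39 log2 (SE 0.15, adjusted p = 1.40e-04). Bmp4 read 8.53, 8.38, 9.15 and 8.94 log2, against 9.53 to 9.83 log2 on siScramble, and fell by 0.91 log2 (SE 0.08, adjusted p = 2.87e-05). Tgfb1 rose by 0.81 ± 0.12 log2 (adjusted p = 9.16e-04), and the co-receptor gene Tgfbr3 by 0.53 log2. Of the BMP targets, Id2 and Id3 fell by 0.30 and 0.29 log2. Over the whole list of 39 genes, 3 rose and 6 fell (3 without siScramble 2, siScramble 4 or siAirn-001.2 array 2), with a median of -0.02 log2. Against siScramble 1 to 4, 6 rose and 9 fell, and against siScramble 5 and 6, 1 rose and 2 fell. Tgfb1, Tgfbr3, Id2 and Id3 were chosen after their values were seen.

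Heat shock chaperones were lower against siScramble 1 to 4, and none passed limma's adjusted threshold against siScramble 5 and 6. Of 16 heat shock chaperones, 5 fell and 0 rose against all controls (beside 5.92% of all genes higher and 5.62% lower), and 7 fell and 0 rose against siScramble 1 to 4. Hsph1, a partner of Hsp70, read 9.73, 9.61, 9.95 and 9.77 log2 on the near-control arrays, against 10.59, 10.65, 10.81 and 10.70 log2 on siScramble 1 to 4 and 10.07 and 10.02 log2 on siScramble 5 and 6. It fell by 0.71 log2 against all controls (adjusted p = 0.00801), and its difference from siScramble 5 and 6 was -0.28 log2 (adjusted p = 0.0862). Chordc1, a co-chaperone of Hsp90, fell by 0.52 log2 against all controls. The 5 falls became 1 when any one of siScramble 1, 2 and 4, the near-control siAirn-001.1 arrays or array 2 of siAirn-001.2 was left out, and 2 without siScramble 3. In the unfolded protein response list 3 of 23 rose and 5 fell, with 2 falls when any one of siScramble 1 to 4 or array 2 of siAirn-001.1 was left out, 1 without array 1 of siAirn-001.1 and 3 without either siAirn-001.2 array. It had 6 rises and 5 falls against siScramble 1 to 4, and 2 rises and 0 falls against siScramble 5 and 6. Herpud1, of endoplasmic reticulum protein degradation, rose by 0.48 log2, and Hyou1, a chaperone of that compartment, fell by 0.44 log2, and neither passed against siScramble 5 and 6 (adjusted p = 0.281 and 0.129). In the list of serine, folate and amino acid stress genes 8 of 39 rose and 4 fell. It had 14 rises and 5 falls against siScramble 1 to 4 and 3 of each against siScramble 5 and 6. The list mean was 0.03 and 0.01 log2 with siAirn-001.1 and 0.22 and 0.21 log2 with siAirn-001.2 on the near-control arrays. It was -0.06 to 0.10 log2 on siScramble, and the difference between reagents over this list was not tested. Pycr1, an enzyme of proline synthesis, rose by 0.69 log2 and had 0.26 log2 against siScramble 5 and 6 (adjusted p = 0.0863). That list had 5 rises without siScramble 1, 2 or 4 or either siAirn-001.1 array, and 13 without siScramble 6.

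Interferon response genes were measured because double-stranded RNA can induce them. Of 50, 7 rose (4 without array 1 of siAirn-001.1 or array 2 of siAirn-001.2) and 2 fell (beside 5.92% of all genes higher and 5.62% lower), with a median of 0.07 log2. Relative to siScramble 1 to 4, 13 rose and 4 fell, and against siScramble 5 and 6, 2 rose and 3 fell. The list mean was 0.15, 0.14, 0.05 and 0.03 log2 on the near-control arrays and 0.44, 0.58, 0.16 and 0.19 log2 on the other siAirn arrays, against -0.04 to 0.05 log2 on siScramble. The other siAirn arrays thus lay above the near-control arrays of the same reagent, a difference that was not tested. Tapbp, of antigen loading, read 11.09, 11.04, 10.52 and 10.88 log2 on the near-control arrays, against 10.02 to 10.32 log2 on siScramble, and rose by 0.66 ± 0.08 log2 (adjusted p = 3.62e-04). The GTPase gene Irgm1 rose by 0.92 log2, but its difference from siScramble 5 and 6 was 0.34 log2 (adjusted p = 0.350). The RNA interference machinery gave 1 rise (Tnrc6b, 0.47 log2) and 1 fall (Xpo5, -0.42 log2) of 11 members, with 2 and 4 against siScramble 1 to 4 and 1 and 0 against siScramble 5 and 6.

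At the Airn locus, Igf2r, Slc22a2 and Slc22a3 did not pass. Igf2r read 6.70, 6.70, 6.85 and 6.89 log2 on the near-control arrays and 6.81 to 6.92 log2 on the other siAirn arrays, against 6.81 to 6.97 log2 on siScramble. Its difference was -0.12 ± 0.06 log2 (adjusted p = 0.224), and the groups overlapped. Slc22a2 differed by -0.07 ± 0.09 log2 (adjusted p = 0.722) and Slc22a3 by -0.05 ± 0.08 log2 (adjusted p = 0.809). Of 17 genes in and around the imprinted cluster, 0 rose and 1 fell, namely the kinase gene Map3k4 (-0.31 ± 0.07 log2, adjusted p = 0.00968), which did not pass against siScramble 5 and 6 (-0.24 log2, adjusted p = 0.188) or in 1 of 10 fits that left out an array. With siScramble 1 to 4 as controls, 3 of the 17 rose and 2 fell, beside 10.9% and 10.8% of all genes, and against siScramble 5 and 6, 0 passed limma's adjusted threshold. With the replicate number as a block, 2 rose and 1 fell.

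In the insulin-like growth factor system 1 of 17 genes rose and 2 fell (3 and 6 against siScramble 1 to 4, 1 and 2 against siScramble 5 and 6), with the binding protein Igfbp5 higher and the ligand Igf1 lower. Igfbp5 read 11.59, 11.67, 11.20 and 11.35 log2 on the near-control arrays and 11.66, 11.57, 9.32 and 9.45 log2 on the other siAirn arrays, against 10.47 to 10.86 log2 on siScramble. Its rise was 0.76 ± 0.08 log2 (adjusted p = 9.72e-05), whereas the other siAirn-001.2 arrays lay below all controls. Igf1 read 7.12, 7.13, 7.06 and 7.15 log2, against 7.89, 7.9998, 7.92, 7.88, 7.33 and 7.42 log2 on siScramble, and fell by 0.63 log2 (SE 0.13, adjusted p = 0.00658) and by 0.26 log2 against siScramble 5 and 6 (adjusted p = 0.0456). Igf2bp2, which binds Igf2 mRNA, differed by -0.29 ± 0.11 log2 (adjusted p = 0.125), with -0.40 log2 against siScramble 1 to 4 (adjusted p = 0.0117) and -0.06 log2 against siScramble 5 and 6.

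In the remaining lists the counts stand beside 5.92% of all genes higher and 5.62% lower. Immediate early and MAP kinase feedback genes gave 3 rises and 4 falls of 32 (6 and 4 against siScramble 1 to 4, 2 and 3 against siScramble 5 and 6), with Dusp4, a nuclear phosphatase of ERK, at -0.60 log2 and Ier3 at 0.51 log2. Lysosome and proton pump genes gave 3 rises and 1 fall of 32 (6 and 1 against siScramble 1 to 4, 3 and 0 against siScramble 5 and 6), led by the proton pump subunit genes Atp6v0e2 at 0.79 log2 and Atp6v1b2 at 0.32 log2. Cholesterol synthesis gave 3 rises and 0 falls of 23 (6 and 5 against siScramble 1 to 4), among them Pmvk (0.31 log2) and Ebp (0.26 log2), and 0 passed against siScramble 5 and 6 or without either siAirn-001.1 array or array 2 of siAirn-001.2. Cardiac stress markers gave 2 rises and 6 falls of 21, with the falls led by Tgfb2 and Postn, and 3 falls without siScramble 2 or 4. It gave 3 rises and 8 falls against siScramble 1 to 4, and 2 of each against siScramble 5 and 6.

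The siAirn-001.1 arrays of the set carried the larger differences. Alone, the 2 arrays of siAirn-001.1 gave 1957 genes past the threshold (9.69%), and the 2 arrays of siAirn-001.2 gave 313 (1.55%). Among the 2331 genes of the joint comparison, the size of the difference was larger with siAirn-001.1 for 1903. The counts of each reagent moved with single arrays, to 437 for siAirn-001.1 without its array 1 and 595 without its array 2, and to 14 for siAirn-001.2 without its array 1 and 20 without its array 2. The siAirn-001.2 count was also 123 to 144 without siScramble 1, 2 or 4, 498 without siScramble 5, 1018 without siScramble 6, and 199 without either siAirn-001.1 array. A direct test between the reagents, which the choice of arrays by Airn did not use, called 2 of 20193 genes (0.00990%), both lower with siAirn-001.2, beside 1167 at an unadjusted p under 0.05. Same-numbered siAirn arrays deviated together, and with the replicate number as a block the count was 44 over all 14 arrays and 66 over the 8 siAirn arrays.

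Both genes differed because they were high with siAirn-001.1. Asb11, a substrate adaptor of a ubiquitin ligase, read 6.23 and 6.37 log2 with siAirn-001.2 and 7.54 and 7.56 log2 with siAirn-001.1 on the near-control arrays, against 6.06 to 6.58 log2 on siScramble. The difference between reagents was -1.25 ± 0.14 log2 (adjusted p = 0.0172). Pcp4, a small regulator of calmodulin, read 7.67 and 7.96 log2 with siAirn-001.2 and 9.01 and 8.80 log2 with siAirn-001.1, against 7.35 to 7.74 log2 on siScramble. Its difference was -1.09 ± 0.14 log2 (adjusted p = 0.0228). The other siAirn-001.1 arrays read 6.39 and 6.55 log2 for Asb11 and 7.67 and 7.68 log2 for Pcp4, so the high values stood on the near-control arrays of that reagent. Each call was lost when some single arrays were left out, as 0 genes passed without any one of the 4 near-control arrays, 1 without siScramble 3 or 4, and 6 without siScramble 6.

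The other 4 siAirn arrays, on which Airn was lower, are set beside these genes as values, since the rule on Airn itself separates the arrays. Of the 2331 genes, all 4 other siAirn arrays lay within the siScramble range for 344 (14.8%, beside 23.8% of all genes). They lay beyond that range on the same side as the near-control arrays for 287 (12.3%, beside 4.08% of all genes) and beyond it on the opposite side for 26 (1.12%, beside 1.34% of all genes). The same siScramble arrays entered both the call of these genes and the range, so the shares are a description and not a test. Mgat4a, an enzyme of N-glycan branching, read 10.97, 10.76, 10.74 and 10.65 log2 on the near-control arrays and 10.00, 10.06, 9.51 and 9.90 log2 on the other siAirn arrays, against 9.46 to 10.10 log2 on siScramble. Phlda2 read 8.39, 8.13, 8.36 and 8.36 log2 and 9.41, 9.46, 9.33 and 9.40 log2 in the same order, against 9.10 to 9.79 log2 on siScramble. In both genes the near-control arrays alone left the range of all siScramble arrays. The rises of Abhd3 (1.01 log2), Csdc2 (0.79 log2) and Ribc2 (0.76 log2) were of the same kind. The falls of Postn, Ccdc80 and P2rx1 were of this kind only because siScramble 5 and 6 widened the range. Their other siAirn arrays lay below all of siScramble 1 to 4. They read 7.58 to 8.04 against 8.45 to 8.82 log2 for Postn and 7.40 to 7.87 against 8.02 to 8.22 log2 for Ccdc80. P2rx1 read 6.93 to 7.23 against 7.82 to 8.39 log2. The highest near-control values were just below the range, at 6.76 against 6.78 log2 for Postn and 6.793 against 6.796 log2 for P2rx1. For Btnl7 (0.77 log2) and Nxf7 the other siAirn arrays were likewise within the range, but 1 near-control array each was too. It read 7.32 log2 for Btnl7 on siAirn-001.2 array 2 and 8.35 log2 for Nxf7 on siAirn-001.1 array 1. The range of siScramble 1 to 4 alone was 9.46 to 9.92 log2 for Mgat4a and 9.38 to 9.79 log2 for Phlda2. That range was 7.49 to 7.76 log2 for Ribc2, 6.56 to 6.74 log2 for Btnl7 and 9.52 to 9.95 log2 for Nxf7. For each of these genes at least 1 other siAirn array lay outside that narrower range, but none did for Abhd3 or Csdc2.

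For a further group of genes all 8 siAirn arrays lay outside the controls. Shisa6, which modulates glutamate receptors in neurons, read 9.40, 9.34, 9.59 and 9.21 log2 on the near-control arrays and 9.49, 9.58, 9.06 and 8.98 log2 on the other siAirn arrays, against 8.34 to 8.80 log2 on siScramble. Arc, an activity-regulated gene of synapses, read 8.83, 8.84, 8.65 and 8.80 log2 and 8.28, 8.35, 8.41 and 8.62 log2 in the same order, against 7.81 to 8.17 log2 on siScramble. Nuak1, a kinase related to AMPK, read 9.56, 9.77, 10.20 and 10.07 log2 and 10.08, 10.28, 10.51 and 10.62 log2, against 10.70 to 10.94 log2 on siScramble. These genes were outside the controls at both levels of Airn, as were Itih4, Kcnj3 and Rnf157 among the rises and Itga8, Fmod, Them5 and Ncs1 among the falls.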

How the data were processed

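Per the labels, total RNA of 14 HL-1 samples was biotin-labelled and hybridised to Affymetrix arrays. The authors deposited log2 expression values for 20193 genes, with 1 row per symbol. RMA, which normalizes arrays to near-equal distributions, and limma appear, with no version, per the submitters' processing notes. Array model, genome build and annotation: not given in the sources used here. Differences and p-values of all siAirn arrays against siScramble that the authors deposited, and a copy of the values rounded to 2 decimals, served no main result.

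The values were used as deposited. In limma 3.58.1 (R 4.3.3), lmFit and eBayes fitted 3 group means (near-control siAirn-001.1, near-control siAirn-001.2, siScramble) to 10 arrays, with 7 residual and 6.15 prior degrees of freedom. The main contrast weights both reagents equally, tests are two-sided, and adjustment is Benjamini-Hochberg over 20193 genes. Errors after ± are standard errors of the fit unless marked SD. The number of arrays limits the precision. The fit was tested on simulated data.

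Arrays, the 34 gene lists and most alternatives were chosen with earlier results of these data known. Comparisons against siScramble 5 and 6 alone were added after the data were seen. The text names Airn, the cluster genes Igf2r, Slc22a2 and Slc22a3, and Igf2bp2; the 12 strongest rises and falls past the threshold without overlap; the 5 largest each way whose other siAirn arrays all lie within, or all beyond, the siScramble range; up to 5 each way between reagents; and from each list the 2 called members that differ most. Others are marked as chosen after their values were seen.

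Replicate numbers are in the labels. Deviations from the group means correlated between same-numbered arrays of the 2 siAirn reagents (r = 0.32 to 0.53 over 4 pairs). They did not between same-numbered siScramble and siAirn arrays (r = -0.43 to 0.23 over 8 pairs). Whatever the array numbers, siScramble 5 and 6 had r of -0.07 to 0.58 with the near-control arrays. For siScramble 1 to 4 it was -0.47 to 0.10. No 2 arrays were identical. Alternatives covered the replicate block, the arrays and controls in the fit, centring, a filter, the spread model, array weights and rounding.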

Additional observations from a re-analysis of the deposited data

Results flagged for a closer look

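Dixon's criterion was applied to 288 sets of 4 or 6 arrays (most of the named genes and the list means, each on the near-control siAirn arrays and on siScramble). In 8 of them an array lay far from the others of its set, which is 2.78% where chance flags about 5%. On the near-control arrays these were Igf2bp2 on siAirn-001.2 array 1 (8.60 log2), Phlda2 on siAirn-001.1 array 2 (8.13 log2), Prim2 on siAirn-001.2 array 2 (10.76 log2), Myl7 on siAirn-001.2 array 2 (12.88 log2), and the mean of the immediate early and MAP kinase feedback list on siAirn-001.2 array 1 (-0.0560 log2). On siScramble they were Polk on array 3 (9.43 log2), Mrpl21 on array 4 (7.91 log2) and Npm1 on array 6 (11.90 log2).

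Among the near-control arrays, 2 genes differed between the reagents by a direct test, Pcp4 (-1.09 log2, siAirn-001.2 minus siAirn-001.1) and Asb11 (-1.25 log2).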

How the results depend on the processing

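The number of genes past the threshold depended on the control arrays and on single siAirn arrays. In the order near-control set, siAirn-001.1, siAirn-001.2 (each minus siScramble) and the difference between reagents, it was 4370, 3595, 2305 and 67 without siScramble 5 and 6. With only siScramble 5 and 6 as controls, chosen after seeing the data, it was 901, 1185, 193 and 93 with the spread of all 14 arrays and 419, 613, 24 and 1 with that of the 6 arrays left. Array weights gave 3622, 3126 and 715 for the first 3, and an ordinary linear model gave 1469, 1200, 66 and 0 (the last with 1243 at an unadjusted p under 0.05). The replicate block over 14 arrays gave 3241, 2820, 1825 and 44, and over the 8 siAirn arrays 66 for the reagents. In the block over 14 arrays, only siScramble 1 and 2 share a number with the near-control arrays. The differences from siScramble there rest on those 2 controls. Leaving out 1 array gave 1285 to 3151, 437 to 2560, 14 to 1018 and 0 to 6. The set's count moved by over 1.5 times without siScramble 4 (1529), siAirn-001.1 array 1 (1285) or 2 (1303), or siAirn-001.2 array 2 (1339). Centring, trend, the filter on dim genes, rounding and the fit of all 14 arrays kept the set's count between 2135 and 2644. Why the counts moved was not tested, other than that fits with fewer arrays have fewer degrees of freedom.

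Of 94 named genes past the threshold that were followed across the fits, 72 stayed past it whichever array was left out. Without siScramble 5 and 6, 94 did. With only siScramble 5 and 6 and the spread of all 14 arrays, 63 did, and all 94 kept their sign. Many genes chosen after their values were seen, such as Tgfb1, Kcnq1, Ogn and Nop2, were not followed in this way. Among the followed genes that did not pass, 3 changed sign. Slc22a2 did so under the replicate block (0.0892 log2) and H19 with only siScramble 5 and 6 (0.38 log2). Slc22a3 did so when 1 array was left out (-0.139 to 0.0476 log2, the highest without siAirn-001.1 array 1). Dim probes limit what can be seen, since RMA damps their differences.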
